A study of Macaca fascicularis with 6 samples.

Results

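The interleukin-6 (IL-6) family of cytokines and receptors was examined in single-cell RNA sequencing data from the lungs of cynomolgus monkeys (Macaca fascicularis) with and without experimental asthma. The members were chosen by gene symbol, without using their measured values: the ligands IL6, LIF, OSM and IL11, the ligand-binding receptors IL6R, LIFR and OSMR, and the shared receptor chain IL6ST. Of the 8 symbols, 7 had a row among the 28623 genes of the count tables, and IL11 had none and was not analysed here. Lungs were collected in week 11 from 6 male monkeys of 3 to 5 years, and each monkey gave 1 library. The 3 control libraries (numbered 1, 2 and 3) came from monkeys given saline. The 3 asthma libraries (8, 10 and 11) came from monkeys sensitized under the skin with 1 mg/mL Ascaris suum antigen in adjuvant and then challenged through the nose with 10 mg/mL of the antigen, a parasitic worm extract that provokes an allergic airway response. 

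Cytokines of this family signal through IL6ST (gp130), a chain that many cell types carry, while the ligand-specific chain decides which cells respond. IL-6 binds IL6R, which can be shed from the cell surface and then serve cells that do not make it, whereas leukaemia inhibitory factor (LIF) binds LIFR and oncostatin M (OSM) binds OSMR or LIFR, each in a pair with gp130. The receptor pairs activate JAK kinases and the transcription factor STAT3, which induces its own inhibitor SOCS3. In lung, IL-6 and oncostatin M are known as inflammatory signals of leukocytes and structural cells.

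OSM and IL6R transcripts had their highest mean level in granulocyte-like cells, relative to all UMIs of the class, and IL6 in cells of the pleural lining type, here called MC-like. LIF had similar means in the MC-like cells of 6 libraries and in the few mast-like cells of 2 (93.4 and 93.9 CPM). In each of those 2 libraries, though, the MC-like level was the higher. In 3 of the 6 libraries, however, the IL6 value was higher in monocyte-like than in MC-like cells. Of these, control 1 had only 5 IL6 UMIs in MC-like cells and asthma 11 had 0, so the order there is uncertain. LIFR, OSMR and IL6ST had their highest mean level in stromal-like cells, although MC-like cells held more IL6ST UMIs per cell. Between the groups, 1 of 31 member tests in the classes was called, beside 0.278% of all gene tests there: LIFR in stromal-like cells was 2.36-fold higher in asthma (69.2 ± 17.2 CPM in the controls and 166 ± 31.5 in asthma, SD, n = 3 each). The call was lost in 5 of the 6 fits that left out a library, with log2 fold changes of 1.07 to 1.46. Leaving out the capillary endothelial-like cells, whose share of that class was larger in every asthma library, ended the call and brought the log2 fold change from 1.24 to 0.60. All other member tests in the 10 classes and the 14 subtypes with enough cells missed the threshold.

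The libraries held 40556102, 33210436 and 32240293 unique molecular identifiers (UMIs, counted transcripts) in controls 1, 2 and 3, and 41184329, 41489879 and 29014556 in asthma 8, 10 and 11. Of 35133 cell barcodes, 24235 passed the cell filter, with a median of 3835 to 5048 UMIs a cell by library. Between 1 and 11 barcodes of kept cells were shared by any pair of libraries. The kept cells contained 1711 UMIs of IL6, 1486 of LIF, 6651 of OSM, 9780 of IL6R, 1631 of LIFR, 1519 of OSMR and 17730 of IL6ST. These counts set the counting error of the levels below, while the SD given with a level is the spread between libraries.

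Cells were clustered anew and each cluster was named from marker genes, with the ending "-like", because the annotation of the study was not used here and the names were rebuilt. This gave 11 classes and 18 subtypes. The MC-like class (622 cells) corresponds by name to the mesenchymal cells of the study; its markers UPK3B, MSLN, ITLN1 and WT1 are known from mesothelium, and the 9 markers of the class, of which 1 was at 0 and ITLN1 was the most abundant, summed to between 62986 and 77934 CPM by library. The lung label was borne out by 360 AT2-like and 267 AT1-like cells, the surfactant-making and gas-exchange cells of the alveolus. A level below is in CPM, the UMIs of a gene relative to all UMIs of the class in that library (the usual depth-scaled count), adjusted by the trimmed mean of M values (TMM). Summed levels of cell type markers and the limits set by a count of 0 are CPM before that scaling. Libraries are listed in the order control 1, 2, 3 and asthma 8, 10, 11. CPM is relative to the RNA content of the cell, and granulocyte-like cells held only 943 to 1073 UMIs at the median.

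**Figure D1:**
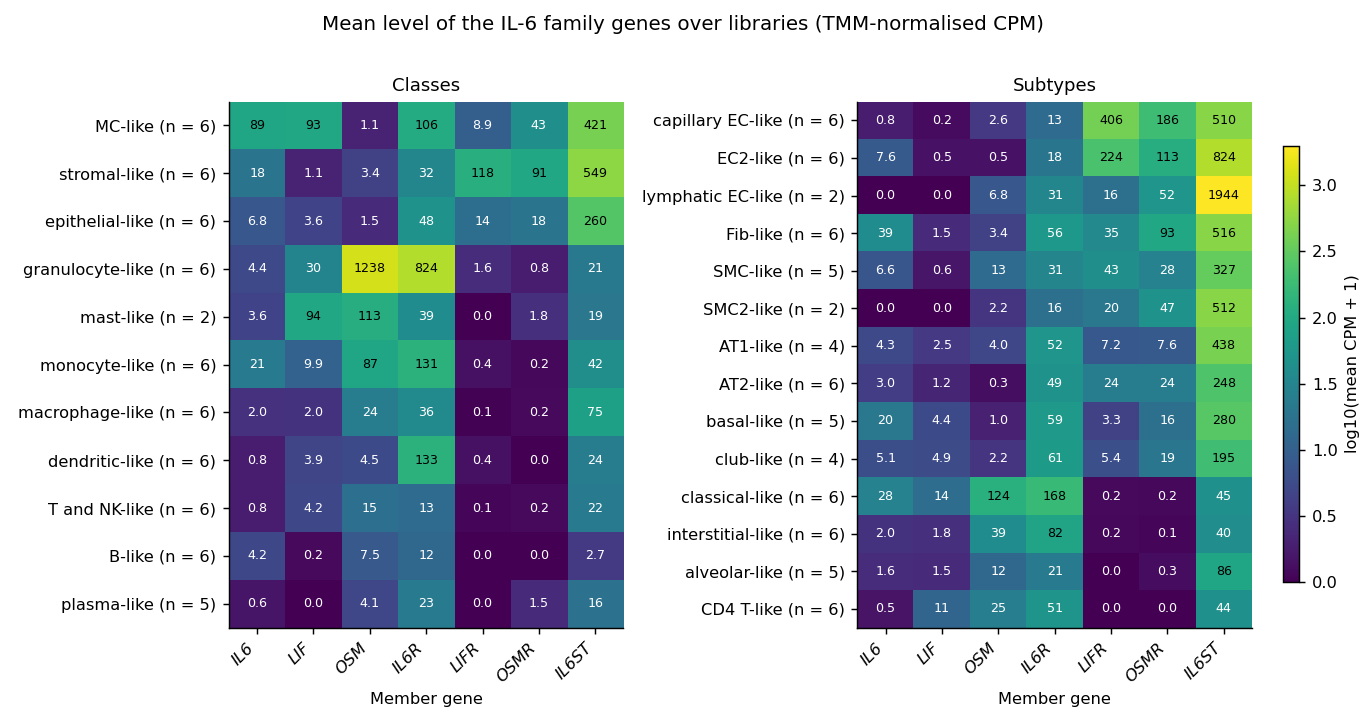
Mean level of the 7 IL-6 family genes (columns) in the cell classes (left, rows) and in subtypes (right, rows), in TMM-normalised CPM, with n the number of libraries averaged; the colour scale is log10 of the mean plus 1 and the number in each cell is the mean itself. OSM and IL6R peaked in granulocyte-like cells (1238 and 824 CPM), IL6 in MC-like cells (89.1 CPM), and LIFR in capillary EC-like cells (406 CPM). Levels are to be compared down a column, not between genes.

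IL6, the founding ligand of the family and an inducer of the acute-phase response, had its highest mean level in MC-like cells, at 89.1 ± 95.7 CPM (SD, n = 6 libraries), or 141 UMIs per 100 cells. Monocyte-like cells followed at 21.4 ± 15.8 CPM and stromal-like cells at 17.8 ± 29.3 CPM, and the library ranges of these 3 classes overlapped. In control 1, control 3 and asthma 11 the monocyte-like level was above the MC-like one. The order is uncertain in control 1, which had 5 IL6 UMIs in MC-like cells, and in asthma 11. In asthma 11 the MC-like 0 allows up to 14.1 CPM, above the monocyte-like 6.21 CPM. Macrophage-like cells stood at 2.01 ± 0.983 CPM in the controls and 1.99 ± 0.803 CPM in the asthma libraries (SD, n = 3 each). Among the subtypes, fibroblast-like (Fib-like) cells reached 39.2 ± 81.7 CPM and classical monocyte-like cells 28.2 ± 16 CPM (n = 6).

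In MC-like cells, IL6 stood at 13.4, 153 and 15.3 CPM in the controls and at 116, 237 and 0 CPM in the asthma libraries, from 5, 52, 7, 324, 488 and 0 UMIs. The asthma 10 library was the highest and asthma 11 the lowest, so that the groups overlapped entirely. The 0 of asthma 11 came from 30 cells and 213122 UMIs in all, a depth that allows up to 14.1 CPM (3 UMIs). The fitted difference was a log2 fold change of 1.26 (SE 0.816, edgeR quasi-likelihood test, adjusted p = 0.999). Without the filter on low counts the same fit called the gene (adjusted p = 0.00156).

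The sub-cluster of MC-like cells with the most IL6 was led by NR4A1, IL6, AREG, CSRNP1 and NR4A2, which include immediate-early genes that cells switch on within minutes of a stimulus. It held 101 cells, 83 of them from asthma 10, and 524 of the IL6 UMIs, 430 of them from asthma 10. It also held 289 LIF UMIs. In asthma 8, more IL6 lay in another sub-cluster, led by CSRP2, CXCL10 and COL6A6. That one held 203 IL6 and 157 LIF UMIs of asthma 8, against 90 and 62 in the NR4A1-led one. Of control 2, the NR4A1-led one held 3 IL6 UMIs. Expression was uneven between cells: in asthma 8 the 324 IL6 UMIs lay in 62 of 266 cells, with up to 23 in 1 cell, and in asthma 10 the 488 UMIs lay in 54 of 200 cells, with up to 42 in 1 cell.

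Immediate-early genes are also known to rise during tissue dissociation, and their summed level in MC-like cells was 4305, 11415 and 4166 CPM in the controls and 5805, 9909 and 2078 CPM in the asthma libraries. FOS was the most abundant, 20 of the 21 listed genes had a row, none was at 0, and none of the 12 tested was called. The 3 libraries with the highest sums (control 2, asthma 10 and asthma 8) were also the 3 with the highest IL6 levels. The part of these genes in the IL6 result was not tested. NR4A2, a nuclear receptor of this list, stood at 16.1, 38.2 and 19.7 CPM in the controls and 69.1, 130 and 80.5 CPM in the asthma libraries without passing the test (adjusted p = 0.177, edgeR), and it was singled out after its values were seen.

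**Figure D2:**
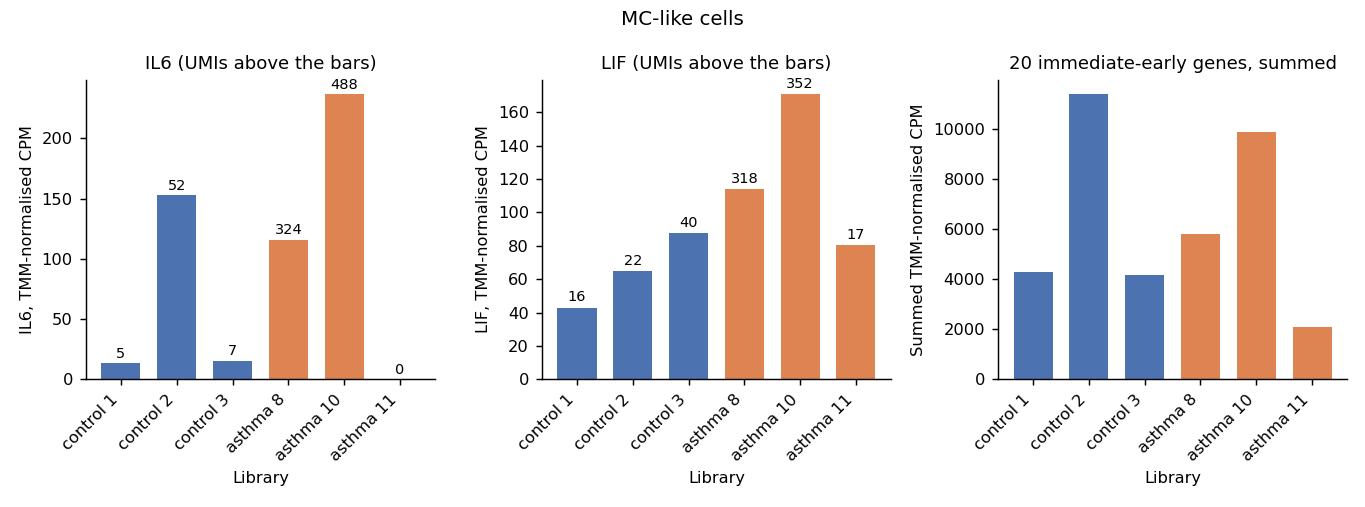
IL6 (left) and LIF (middle) in MC-like cells by library, in TMM-normalised CPM with the UMI count printed above each bar, and the summed CPM of 20 immediate-early genes in the same cells (right); blue bars are control and orange bars asthma libraries. IL6 ranged from 0 to 237 CPM within the asthma group, and control 2, asthma 8 and asthma 10 were high in both the left and the right panel.

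Monocyte-like cells, blood-derived phagocyte precursors, had IL6 at 14.4, 19.3 and 49.9 CPM in the controls and at 10.7, 27.9 and 6.21 CPM in the asthma libraries. Control 3 was the highest and asthma 11 the lowest, and the groups overlapped (log2 fold change −1.19, SE 0.610, adjusted p = 0.777). This gene too was called without the filter on low counts, as lower in asthma (adjusted p = 0.0497). Immediate-early genes were at a median log2 fold change of −0.13 in these cells, with 0 of 20 called, and their part in the IL6 values was not tested.

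Single cells set the IL6 level of the fibroblast-like cells, which make the connective tissue matrix. It was 12.3, 4.0 and 3.4 CPM in the controls and 206, 0 and 10.0 CPM in the asthma libraries. In asthma 8, 141 UMIs lay in 6 of 79 cells and 75 of them in 1 cell, whereas the other libraries held 0 to 13 UMIs. In basal-like cells, the stem cells of the airway lining, IL6 stood at 55.6 and 33.7 CPM in controls 1 and 3 and at 10.0, 0 and 0 CPM in the asthma libraries. These values rest on 4 and 26 UMIs in control and 1, 0 and 0 in the asthma group, from 10, 98, 12, 23 and 15 cells, and control 2 had too few basal-like cells. At this depth the 0 of asthma 10 allows up to 14.6 CPM and that of asthma 11 up to 21.0 CPM, and the gene was too low there to be tested.

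LIF, a cytokine best known for keeping stem cells undifferentiated and for inducing acute-phase genes, was at 93.4 ± 44.7 CPM (SD, n = 6) in MC-like cells and at 85.2 and 103 CPM in the mast-like cells of asthma 8 and 10, the only libraries with at least 10 of them. Per 100 cells this was 123 UMIs in MC-like and 38.5 in mast-like cells. In asthma 8 and in asthma 10 the MC-like level, given below, was above the mast-like one. Granulocyte-like cells came next at 29.8 ± 15 CPM. Stromal-like cells had 1.11 ± 0.675 CPM and B-like cells 0.220 ± 0.538 CPM.

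Within MC-like cells LIF was 42.8, 64.7 and 87.7 CPM in the controls and 114, 171 and 80.5 CPM in the asthma libraries. Asthma 8 and 10 exceeded every control, but asthma 11 lay below control 3. The log2 fold change was 0.97 (SE 0.307), with an unadjusted p of 0.00805 and an adjusted p of 0.999 in the edgeR fit of 5400 genes. Its UMIs were spread over more cells than those of IL6, namely 103 of 266 cells in asthma 8 and 116 of 200 in asthma 10. The immediate-early sums given above apply to these same libraries, and their part in the LIF values was not tested. MC-like cells comprised different sub-clusters by library. The one led by ASB9 and BHMT (LIF 53.6 CPM before scaling) held 10, 28 and 32 control and 137, 26 and 19 asthma cells. The NR4A1-led one (273 CPM) held 0, 4 and 1 control and 11, 83 and 2 asthma cells. The part of this makeup in the IL6 and LIF values was not tested. Epithelial markers in MC-like cells, 15 of 16 with a row, none at 0 and led by SFTPC, summed to 242, 69.3 and 92.2 CPM for the controls and to 1040, 289 and 446 CPM for the asthma libraries. Mast, dendritic and plasma cell markers were also higher in every asthma library, and B cell markers lower, each at a sum of at most 18.8 CPM. The part of all these in the IL6 and LIF values was not tested either.

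OSM, a cytokine made by activated neutrophils and monocytes that acts on endothelium and fibroblasts, had its highest level in granulocyte-like cells. It was 1562, 1114 and 1571 CPM in the controls and 1301, 1217 and 666 CPM in the asthma libraries. Asthma 11 was the lowest and control 3 the highest, with overlap between the groups (log2 fold change −0.41, SE 0.283, adjusted p = 0.9996, edgeR). The mean of 1238 ± 336 CPM (n = 6) was above that of every other class, and no library of another class reached the lowest granulocyte-like library. Because these cells hold little RNA, the level equals only 113 UMIs per 100 cells, against 68.0 in monocyte-like and 51.8 in macrophage-like cells. In MC-like cells OSM was 1.07 ± 1.21 CPM, which includes any free transcript picked up by other droplets. The summed immediate-early level in granulocyte-like cells, 20546 to 26110 CPM, was the highest of the 3 classes richest in members, and its part in the OSM level was not tested.

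Monocyte-like cells were next, with 118, 50.9 and 83.3 CPM of OSM in control and 88.7, 89.98 and 92.5 CPM in the asthma libraries. The asthma libraries lay within the range of the controls. Classical monocyte-like cells alone had 158, 74.5 and 90.5 CPM in the controls and 136, 140 and 147 CPM in the asthma libraries (log2 fold change 0.41, SE 0.257, adjusted p = 0.957). Mast-like cells had 202 CPM in asthma 8 and 23.7 CPM in asthma 10, and of the 57 UMIs in asthma 8, 29 lay in 1 cell.

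One library decided the OSM level of the macrophage-like cells, the resident phagocytes of airspace and interstitium. The values were 51.7, 13.1 and 20.3 CPM in the controls and 10.3, 15.5 and 32.5 CPM in the asthma libraries. Control 1 stood alone above the rest. A sub-cluster led by EREG, FER1L6 and C4orf48 held 508 cells of control 1 among its 535 cells, and 689 of the OSM UMIs of that library. With control 1 the log2 fold change was −0.59 (adjusted p = 0.911), and without it 0.20. In CD4 T-like cells, OSM was 37.8, 23.3 and 27.4 CPM in the controls and 21.2, 18.9 and 18.9 CPM in the asthma libraries. Every asthma library was below every control there, as were 6.71% of all gene tests in the subtypes. The log2 fold change of −0.62 (SE 0.259) had an unadjusted p of 0.0331 and an adjusted p of 0.734. In these CD4 T-like cells MC markers summed to 10.2, 19.3 and 18.8 CPM for the controls and to 91.0, 103 and 22.8 CPM for the asthma libraries. Dendritic cell markers were lower in every asthma library, at sums of at most 16.5 CPM. Immediate-early genes had a median log2 fold change of −0.26, with 0 of 17 called. The part of these in the OSM difference was not tested.

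**Figure D3:**
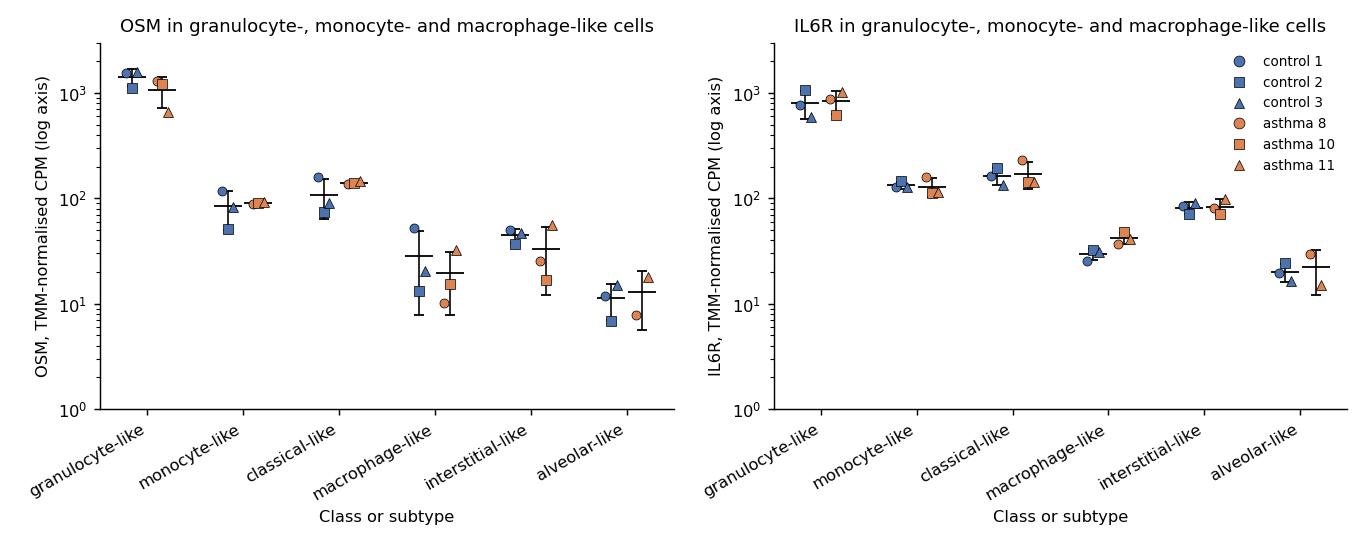
OSM (left) and IL6R (right) in granulocyte-like, monocyte-like and macrophage-like cells and their subtypes, in TMM-normalised CPM on a log axis; each symbol is a library, horizontal bars are group means and whiskers the SD. Granulocyte-like cells lay between 666 and 1571 CPM for OSM, and the groups overlapped in every column except IL6R in macrophage-like cells, where the asthma libraries (37.1 to 47.8 CPM) were above the controls (25.3 to 32.1 CPM).

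IL6R, the binding chain for IL-6, also had its highest level relative to all UMIs in granulocyte-like cells, which held 13.4% of its UMIs. They had 772, 1067 and 585 CPM in the controls and 870, 623 and 1026 CPM in the asthma libraries. The groups spanned the same range, and the fitted log2 fold change was 0.03 (SE 0.279, adjusted p = 0.9996). Dendritic-like, monocyte-like and MC-like cells followed with 133 ± 22.8, 131 ± 18.3 and 106 ± 25.2 CPM (SD, n = 6 each), and neighbours in this order overlapped. Per cell the order was different: dendritic-like cells had 159 UMIs of IL6R per 100 cells, monocyte-like 101, MC-like 100.5 and granulocyte-like 79.4.

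Macrophage-like cells showed IL6R at 25.3, 32.1 and 30.9 CPM in the controls and at 37.1, 47.8 and 40.8 CPM in the asthma libraries. Every asthma library exceeded every control, as did 5.93% of the 10346 genes of this fit. The log2 fold change of 0.51 (SE 0.155) had an unadjusted p of 0.0119 and an adjusted p of 0.785. Within the class, interstitial-like macrophages had 82.4 ± 11.1 CPM and alveolar-like macrophages 20.9 ± 5.97 CPM. Within these subtypes the log2 fold change was 0.02 in the interstitial-like (adjusted p = 0.999) and 0.19 in the alveolar-like cells (adjusted p = 0.961), the latter from 2 asthma libraries only, since asthma 10 had 6 such cells. Alveolar-like cells made up 15.7, 48.1 and 55.2% of the class in control and 75.4, 0.952 and 42.9% in asthma. Interstitial-like cells made up 24.1, 25.8 and 34.2% in control and 17.9, 57.1 and 52.7% in asthma. The remaining macrophage-like cells had neither name, so the 2 subtype fits do not cover the whole class. The part of this makeup in the IL6R values was not tested. In the whole class 2 sums of markers of other cells were higher in every asthma library. The 9 MC markers, none at 0 and led by ITLN1, summed to 7.23, 7.92 and 9.62 CPM for the controls and to 76.4, 67.9 and 11.7 CPM for the asthma libraries, and the mast cell markers, 7 of 8 with a row, none at 0 and led by FCER1A, to 2.59, 2.44 and 8.15 CPM and to 12.6, 16.2 and 15.1 CPM. Granulocyte markers, 9 of 11 with a row, none at 0 and led by S100A9, were lower in every asthma library (705, 1094 and 1382 CPM against 509, 647 and 423 CPM). The part of these cells in the IL6R values was not tested either. Among lymphocytes, CD4 T-like cells had 57.2 ± 9.48 CPM in the controls and 44.0 ± 9.01 in asthma (adjusted p = 0.837), well above the natural killer-like cells (NK-like, 2.43 ± 2.27 CPM).

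LIFR, the chain that binds LIF and can bind oncostatin M, was highest in stromal-like cells, which held 80.6% of its UMIs over all libraries. In control 1 this share was 56.8%, with 28.4% in epithelial-like cells, and in control 2 it was 69.2%, with 13.5% in epithelial-like cells. The stromal-like class, which contains endothelial, fibroblast-like and smooth muscle-like cells, had 118 ± 57.9 CPM (SD, n = 6), against 14.4 ± 10.1 CPM in epithelial-like and 8.91 ± 4.80 CPM in MC-like cells. B-like cells held no LIFR UMI in 4079742 UMIs, which allows up to 0.735 CPM, and macrophage-like cells had 0.0559 ± 0.137 CPM. Inside the stromal class, capillary endothelial-like cells (capillary EC-like) had 406 ± 229 CPM and the other endothelial-like group, EC2-like cells with the larger-vessel markers VWF, ACKR1 and SELP, had 224 ± 86.3 CPM. Smooth muscle-like and fibroblast-like cells had 42.6 ± 17.1 and 34.9 ± 6.11 CPM. Within the stromal class, 282 of the 352 smooth muscle-like cells had PDGFRA and ASPN, but neither ACTA2 nor MYH11, among their leading genes. Compared with all cells, their leading genes did include ACTA2 and MYH11. The smooth muscle name is therefore uncertain for these cells. Of the capillary EC-like cells, a sub-cluster led by SEMA3G, NOSTRIN and PLVAP held 623 LIFR UMIs in 354 cells, and one led by ACE, EDNRB and HPGD, of 350 cells, held 114. A stromal-like sub-cluster of no named subtype, led by ITGA8, NPNT and ADRA1A, had LIFR at 341 CPM before scaling, from 38 UMIs. It held 0, 0 and 0 control and 10, 10 and 28 asthma cells. Its part in the stromal-like LIFR values was not tested.

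Stromal-like cells had LIFR at 68.5, 52.3 and 86.7 CPM in the controls and at 162, 200 and 138 CPM in the asthma libraries. All asthma libraries were higher than all controls. The log2 fold change was 1.24 (SE 0.232, edgeR quasi-likelihood test, adjusted p = 0.0388). In the same fit 1.15% of 9571 genes were called higher in asthma, 0.815% were called lower, and 13.5% had every asthma library above every control. LIFR was the only one of the 4 members tested in this class to be called.

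The makeup of the class also differed between the groups. Capillary EC-like cells were 8.05, 10.4 and 3.18% of the stromal-like cells in control, from 12, 13 and 12 cells, and 50.1, 56.5 and 30.6% in asthma, from 187, 192 and 288 cells. The 6 markers of capillary endothelium, of which HPGD was the most abundant and none was at 0, summed to 623, 760 and 202 CPM in the controls and 3977, 6744 and 3099 CPM in the asthma libraries. Without the capillary EC-like cells, an alternative added after the data had been seen, the log2 fold change of LIFR in the class was 0.60 (adjusted p = 0.591). When a single library was left out, the log2 fold change stayed between 1.07 and 1.46. The call was lost without control 1, 2 or 3 or asthma 8 or 10 (adjusted p from 0.087 to 0.147) and kept without asthma 11 (adjusted p = 0.0265).

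Markers of other cells were also higher in the stromal-like cells of every asthma library. The 11 macrophage markers, none at 0 and led by APOE, summed to 1075, 2263 and 795 CPM for the controls and to 2904, 2362 and 3324 CPM for the asthma libraries. The 9 MC markers, 1 at 0 and led by ITLN1, summed to 21.9, 31.2 and 46.7 CPM and to 212, 123 and 101 CPM, and the mast cell markers, 7 of 8 with a row, none at 0 and led by GATA2, to 122, 88.6 and 127 CPM and to 297, 365 and 207 CPM. The 6 markers of the subtype that the study calls SMC2, whose cluster was led by COX4I2, POSTN and NOTCH3, summed to 408, 227 and 348 CPM and to 930, 1014 and 2186 CPM. None was at 0, and RGS5 was the most abundant. Granulocyte, plasma cell and dendritic cell markers were also higher in every asthma library, each at a sum of at most 124 CPM. Within fibroblast-like cells the sum led by APOE was 1370 to 7343 CPM by library. It was 86.3 to 167 CPM within EC2-like and 231 to 530 CPM within capillary EC-like cells. How much of this sum came from macrophages was not tested. The sums led by GATA2 and RGS5 were not particular to mast and SMC2 cells. Within capillary EC-like cells they were 418 to 1146 CPM and 377 to 1552 CPM by library. The 6 fibroblast markers, none at 0 and led by DCN, were lower in every asthma library (25867, 70400 and 28900 CPM against 19315, 13862 and 20364 CPM). The part of these cells in the LIFR result was not tested.

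Within capillary EC-like cells, LIFR was 387, 76.0 and 790 CPM in the controls and 368, 363 and 453 CPM in the asthma libraries. The controls, with 13, 2 and 17 UMIs, were spread on both sides of the asthma libraries. The log2 fold change was −0.02 (SE 0.446, adjusted p = 0.998) and its sign depended on the processing. The SEMA3G-led sub-cluster (LIFR 619 CPM before scaling) held 4, 0 and 6 control and 84, 68 and 192 asthma cells. The ACE-led one (105 CPM) held 8, 13 and 6 control and 103, 124 and 96 asthma cells. The part of this makeup in the capillary EC-like values was not tested. EC2-like cells had 106, 176 and 194 CPM in the controls and 228, 295 and 346 CPM in the asthma libraries. Every asthma library exceeded every control (5.33% of the genes of that fit did so), with a log2 fold change of 0.84 (SE 0.297, unadjusted p = 0.0167, adjusted p = 0.802). In the same cells the 6 capillary markers, none at 0 and led by ADGRL2, summed to 277, 230 and 56.6 CPM for the controls and to 324, 414 and 455 CPM for the asthma libraries. The 5 lymphatic markers, 1 at 0 and led by LYVE1, summed to 264, 173 and 12.01 CPM and to 332, 351 and 278 CPM, and the 11 macrophage markers, none at 0 and led by APOE, to 99.6, 86.3 and 109.8 CPM and to 121, 112 and 167 CPM. Immediate-early genes had a median log2 fold change of −1.30 there, beside −0.01 over all genes, with 0 of 11 called. The part of these in the LIFR difference of EC2-like cells was not tested. Fibroblast-like cells had 24.6, 31.8 and 35.2 CPM against 40.9, 36.4 and 40.6 CPM, again without overlap, as in 7.82% of genes of that fit (log2 fold change 0.32, SE 0.268, adjusted p = 0.771). Fibroblast-like cells comprised different sub-clusters in the groups. The one led by CCL11, PF4V1 and C3, with LIFR at 44.95 CPM before scaling, held 15, 29 and 39 control cells and 58, 44 and 234 asthma cells. The one led by RBP4, PCOLCE2 and MYOC, with LIFR at 23.0 CPM before scaling, held 29, 50 and 126 control cells and 21, 18 and 1 asthma cells. The part of this makeup in the LIFR difference was not tested.

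**Figure D4:**
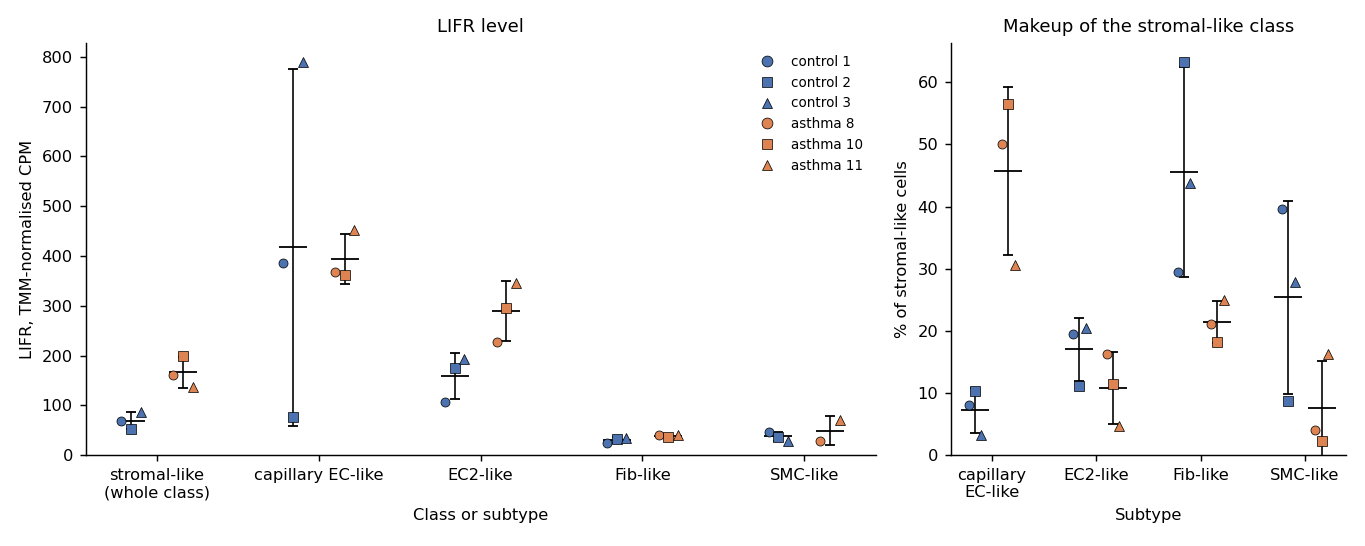
LIFR in the stromal-like class and its subtypes by library (left, TMM-normalised CPM) and the share of stromal-like cells in each subtype (right, percent); symbols are libraries, horizontal bars group means and whiskers the SD, cut off at 0. LIFR in the whole class lay between 52.3 and 86.7 CPM in the controls and between 138 and 200 CPM in the asthma libraries, while capillary EC-like cells were at most 10.4% of the class in control and at least 30.6% in asthma.

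OSMR, which binds oncostatin M together with gp130 and is also a chain of the IL-31 receptor, had a distribution close to that of LIFR but extended further into fibroblast-like and MC-like cells. The stromal-like class had 91.4 ± 24.6 CPM (SD, n = 6), MC-like cells 42.8 ± 12.1 and epithelial-like cells 17.8 ± 5.18 CPM. Per 100 cells, MC-like cells held 42.6 and stromal-like cells 41.5 UMIs. Its subtype order was capillary EC-like (186 ± 84.9 CPM), EC2-like (113 ± 49.8) and fibroblast-like (93.4 ± 31.8), and these ranges overlapped. Stromal-like cells had 87.8, 48.0 and 91.8 CPM in the controls and 119, 110 and 91.1 CPM in the asthma libraries. Asthma 11 lay between the controls, and the log2 fold change of 0.47 (SE 0.249) did not pass the test (adjusted p = 0.346). Dendritic-like cells held no OSMR UMI, which allows up to 0.429 CPM.

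IL6ST, the signalling chain common to all these cytokines, had UMIs in all 11 classes, as did IL6, OSM and IL6R. For IL6, plasma-like cells held only 0.0584% of the UMIs, which includes any free transcript picked up by droplets. Stromal-like cells had 549 ± 83.6 CPM, MC-like cells 421 ± 61.9, epithelial-like cells 260 ± 16.4 and macrophage-like cells 74.7 ± 12.7 CPM (SD, n = 6 each). Per 100 cells the order was MC-like (445 UMIs), epithelial-like (232), stromal-like (219) and macrophage-like (145). The ranges of the stromal-like and MC-like classes overlapped, whereas the steps from MC-like to epithelial-like, macrophage-like and monocyte-like cells (41.7 ± 5.81 CPM) did not. B-like cells were the lowest class at 2.69 ± 2.07 CPM. Of the subtypes, lymphatic EC-like cells had 2139 CPM in control 3 and 1749 CPM in asthma 11, the only libraries with at least 10 of these cells, and EC2-like cells had 824 ± 235 CPM. AT1-like cells had 438 ± 70.2 CPM (n = 4) and AT2-like cells 248 ± 24.2 CPM (n = 6).

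The stromal-like level of IL6ST was 587, 634 and 542 CPM in the controls and 570, 570 and 390 CPM in the asthma libraries. Asthma 11 was below the other libraries, which lay between 542 and 634 CPM (log2 fold change −0.20, SE 0.207, adjusted p = 0.643). In epithelial-like cells the 6 libraries lay between 234 and 275 CPM (log2 fold change 0.06, SE 0.184, adjusted p = 0.960). In MC-like cells IL6ST was 311, 471 and 423 CPM in the controls and 437, 483 and 402 CPM in the asthma libraries, with the groups overlapping (log2 fold change 0.14, SE 0.226, adjusted p = 0.999).

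Counted over libraries, a few classes held most of each ligand. MC-like cells, 2.57% of the kept cells, held 51.2% of all IL6 UMIs and 51.5% of all LIF UMIs. The share of IL6 UMIs in MC-like cells was 6.02, 34.2 and 4.67% in control and 54.3, 76.6 and 0% in asthma. The share of LIF was 11.2, 15.6 and 26.7% in control and 73.3, 74.6 and 11.6% in asthma. Asthma 8 and 10 were therefore far above the controls for both ligands, and asthma 11 was below all of them for IL6. The MC-like class numbered 31, 46 and 49 cells in control and 266, 200 and 30 in the asthma group, and the part of these numbers in the shares was not tested. Neither difference passed the two-sided exact permutation test (p = 0.4 for IL6 and 0.3 for LIF, where 20 assignments of the libraries allow no p below 0.1).

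Stromal-like cells held 56.8, 69.2 and 84.2% of LIFR UMIs in control and 76.9, 83.1 and 84.8% in the asthma group, and were the largest holder of LIFR and OSMR in every library. The largest named holder of the other transcripts differed between libraries. For IL6ST it was the stromal-like class over all libraries (28.5% of UMIs), but the macrophage-like class in control 1 (49.7%, beside 13.8% in stromal-like cells) and the MC-like class in asthma 8 and 10 (29.4 and 27.5%, beside 25.3 and 23.6%). For IL6R it was the macrophage-like class over all libraries (20.2%), but granulocyte-like cells in control 2 (24.7%), dendritic-like cells in control 3 (29.6%) and monocyte-like cells in asthma 11 (27.9%). For OSM, granulocyte-like cells held 28.2%, macrophage-like cells 22.9% and monocyte-like cells 14.99% over all libraries. Macrophage-like cells held the most OSM UMIs in control 1 (49.0%) and monocyte-like cells in asthma 11 (39.7%), where granulocyte-like cells held 14.9 and 11.9%. None of the 84 shares passed the exact permutation test after Benjamini-Hochberg adjustment (smallest adjusted p = 1, where groups of 3 libraries allow no unadjusted p below 0.1).

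**Figure D5:**
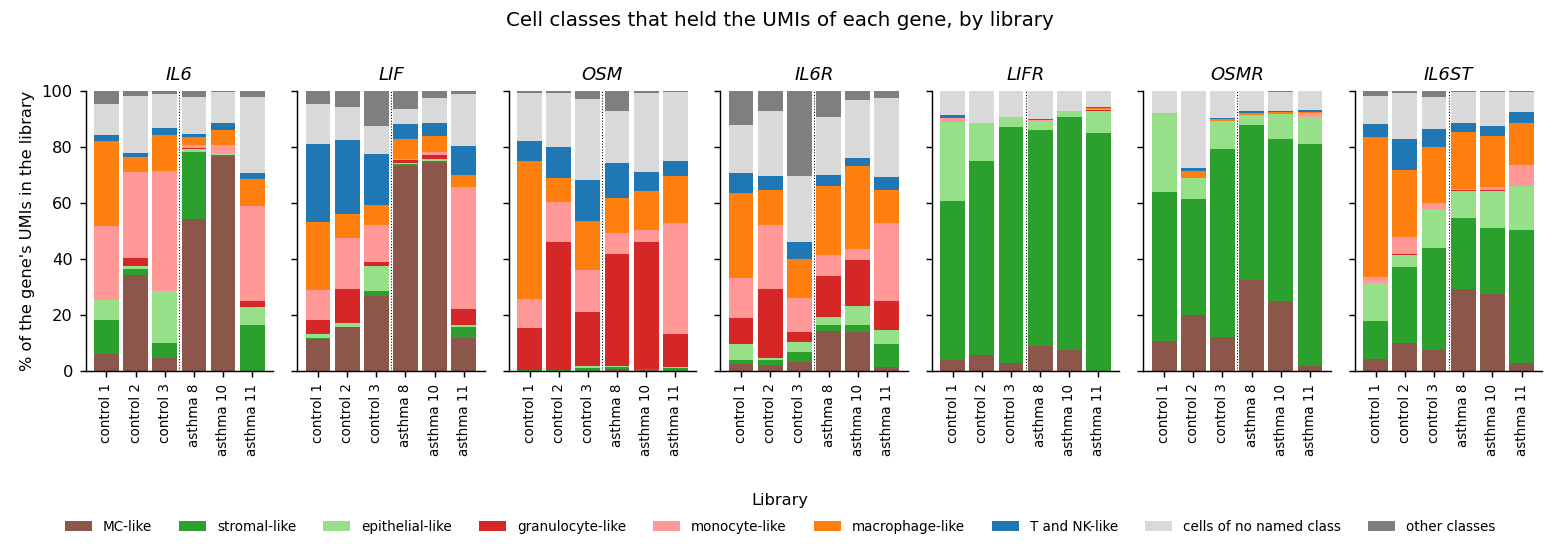
Percent of the UMIs of each gene (panels) that lay in each cell class (colours), for every library (columns, with a dotted line between control and asthma). MC-like cells held 54.3 and 76.6% of IL6 UMIs in asthma 8 and 10 but 0% in asthma 11, while the stromal-like share of LIFR was at least 56.8% in every library.

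Across the class fits, 1 of 31 member tests was called, against 0.278% of all 69527 gene tests. In 2 of the 31 (LIFR in stromal-like and IL6R in macrophage-like cells) the groups did not overlap, while 13.9% of all tests had this property. In the subtype fits none of 36 member tests was called (edgeR; 2 had an unadjusted p under 0.05 as did 5.3% of all tests, 0.0385% of all tests were called, and without the filter on low counts IL6 in fibroblast-like cells was). There, 5 of 36 did not overlap, a share close to the 14.3% of all subtype tests. With so few member tests, 1 call more or less changes these shares widely.

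When all cells of a library were summed, 3 receptor chains had all asthma libraries above all controls, a property of 10.1% of all genes. In such sums more cells of a type and more RNA of the gene per cell cannot be told apart. LIFR was 2.62, 2.28 and 6.47 CPM in the controls and 11.9, 11.1 and 20.8 CPM in the asthma libraries. The 2 lowest asthma libraries were still above the highest control. The log2 fold change was 1.94 (SE 0.470, unadjusted p = 0.00484, adjusted p = 0.212), and DESeq2 called it (adjusted p = 0.00301). OSMR had a log2 fold change of 1.19 (SE 0.405, adjusted p = 0.311) and IL6ST of 0.43 (SE 0.150, adjusted p = 0.316). The ligands IL6 and LIF had log2 fold changes of 1.502 and 1.05 with overlapping groups (adjusted p = 0.411 and 0.333). None of the 7 members was called by edgeR, 4 had an unadjusted p under 0.05 as did 12.9% of all genes, and 0.0839% of genes were called. The median over the 7 was 1.05, beside −0.02 over all 14306 genes. Stromal-like cells were 3.43, 3.91 and 9.66% of kept cells in control and 9.02, 7.36 and 23.3% in asthma, and their part in these sums was not tested.

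Other genes of the pathway were read from lists of related ligands, receptors, signalling proteins and targets, in the 3 classes with the highest summed level of the members (granulocyte-like, stromal-like and MC-like). Of the other ligands, 5 of 7 had a row, and CTF1 (cardiotrophin-1) was the most abundant in MC-like and stromal-like cells at 17.7 and 9.62 CPM, while CLCF1 led at 0.338 CPM in granulocyte-like cells. Of the other receptors, 3 of 4 had a row. CNTFR, the chain for ciliary neurotrophic factor, was at 64.9 CPM in stromal-like and 1.52 CPM in MC-like cells, and IL27RA at 4.82 CPM in granulocyte-like cells. Of both lists together, 3 genes were high enough to be tested, all in stromal-like cells, and none was called (edgeR).

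The JAK and STAT genes were present throughout. JAK1, the kinase bound to gp130, was the most abundant of them in granulocyte-like (541 CPM) and stromal-like cells (238 CPM), and STAT3 in MC-like cells (181 CPM). In stromal-like cells 0 of 7 were called, TYK2 was lower in all asthma libraries (adjusted p = 0.416), beside 12% of all genes of that fit, and 2 were higher in all of them, beside 13.5%, namely JAK1 (202, 211 and 197 CPM against 272, 281 and 263, adjusted p = 0.187) and STAT3 (144, 145 and 183 CPM against 227, 299 and 208, adjusted p = 0.149). The median log2 fold change of the list was 0.42 there, beside 0.01 over all genes. Within the stromal subtypes it was 0.44 in EC2-like, 0.09 in fibroblast-like, −0.06 in smooth muscle-like and −0.11 in capillary EC-like cells. Over all genes of these fits it was −0.01, 0.01, −0.01 and 0.14. Negative regulators were led by PTPN6 in granulocyte-like cells (447 CPM), SOCS2 in stromal-like (38.9 CPM) and PTPN2 in MC-like cells (48.1 CPM), with 0 of 6 called in the stromal-like class. Of the genes for receptor shedding, the metalloprotease ADAM10 was the most abundant in each of the 3 classes (53.1, 55.4 and 49.1 CPM). In stromal-like cells it was 38.7, 37.8 and 38.8 CPM in the controls and 79.1, 84.9 and 53.0 CPM in the asthma libraries, which did not pass the test (adjusted p = 0.0859). Of the 4 shedding genes tested there, 0 were called and 3 were higher in every asthma library, beside 13.5% of all genes. Their median log2 fold change was 0.85, beside 0.01 over all genes. In the subtypes it was 0.53 in capillary EC-like (2 tested), −0.13 in fibroblast-like (2 tested) and 0.27 in EC2-like cells (1 tested). The part of the class makeup and marker sums given above in the JAK, STAT and shedding values of stromal-like cells was not tested.

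Among the STAT3 targets, TIMP1, an inhibitor of matrix metalloproteases, fell in stromal-like cells, and no other gene of the lists was called in a class fit. Its level was 5479, 4788 and 3904 CPM in the controls and 2369, 1291 and 1533 CPM in the asthma libraries, without overlap (log2 fold change −1.45, SE 0.295, adjusted p = 0.0475, edgeR). In the same list, 1 of 8 tested genes was called lower, beside 0.815% of all genes of that fit, and none higher. In 3 of the 8 (MCL1, PIM3 and BCL3) every asthma library was above every control, beside 13.5% of all genes, in 2 (TIMP1 and FGL2) every one was below, beside 12%, and the median log2 fold change was 0.26. TIMP1 was not called in 8 of 15 alternatives, among them 5 of the 6 that left out a library (log2 fold change −1.74 to −1.29 over the 6, adjusted p up to 0.185). Without the capillary EC-like cells its log2 fold change was −0.83 (adjusted p = 0.458), and fibroblast-like cells made up 29.5, 63.2 and 43.8% of the class in control and 21.2, 18.2 and 24.9% in asthma. The part of this makeup and of the marker sums given above in the TIMP1 result, and in the other stromal-like values of this list, was not tested. TIMP1 was also the most abundant of these targets in MC-like cells (12243 CPM), and FGL2 in granulocyte-like cells (434 CPM).

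Of the 10 genes that regulate the IL6 transcript, NFKBIA, an inhibitor of NF-κB, led in granulocyte-like (2076 CPM) and MC-like cells (695 CPM) and ZFP36L1, an RNA-decay factor, in stromal-like cells (950 CPM), and none was called in these classes. In fibroblast-like cells NFKBIZ, a nuclear co-regulator of NF-κB that promotes IL6 transcription, rose. It was 53.2, 49.8 and 57.9 CPM in the controls and 162, 166 and 160 CPM in the asthma libraries, with little spread within either group (log2 fold change 1.59, SE 0.209, adjusted p = 0.0128). The call was lost without control 1 (adjusted p = 0.0546) or control 3 (0.118), while the log2 fold change stayed between 1.51 and 1.66 without any 1 library. In that fit 0.135% of 6684 genes were called higher. This gene lies outside the rule for named genes, which covers the class fits, and was chosen after its values were seen. The sub-cluster makeup of the fibroblast-like cells given above also differed between the groups. In the same cells the 11 macrophage markers, none at 0 and led by APOE, summed to 1933, 3052 and 1370 CPM before scaling for the controls and to 6733, 7343 and 6604 CPM for the asthma libraries. The macrophage part of this sum was not tested. The 6 smooth muscle markers, 1 at 0 and led by TAGLN, summed to 557, 267 and 454 CPM and to 1023, 1282 and 1568 CPM, and the 9 MC markers, 1 at 0 and led by PRG4, to 54.1, 31.2 and 10.8 CPM and to 354, 112 and 208 CPM. The 6 fibroblast markers, none at 0 and led by DCN, were lower in every asthma library (63149, 96788 and 56061 CPM against 45192, 46297 and 45501 CPM). The part of these in the NFKBIZ result, and in the LIFR difference of the same cells, was not tested. In the list of immediate-early genes FOS was the most abundant in each of the 3 classes, and in that of red cell and platelet genes HBB was, at 4.56 to 9.88 CPM. No immediate-early gene was called in these classes, and no red cell or platelet gene was high enough to be tested in them.

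Over the 11 classes, the levels of LIFR and OSMR were alike (Pearson r = 0.938 of log2 CPM plus 10), as were those of IL6ST and OSMR (r = 0.892), whereas LIF and LIFR were not (r = −0.08). These are descriptions over 11 points that share libraries and depth. Of the 8502 genes compared, those most like each member were PLCB1, GATM and ZFHX4 for IL6 (r from 0.942 to 0.966), ELOVL6, EXTL3 and HS3ST5 for LIF (0.837 to 0.877) and NFE2, SRXN1 and AGTPBP1 for OSM (0.973 to 0.978). For the receptors they were ARRDC4, DOCK5 and PLA2G7 for IL6R (0.944 to 0.961), GULP1, CADM3 and EDIL3 for LIFR (0.995 to 0.997), FSTL1, SH3D19 and NFIB for OSMR (0.994 to 0.997) and RIN2, LAMB2 and CREBL2 for IL6ST (0.966 to 0.975). LIF and OSM are neighbours on the chromosome, with 0 protein-coding genes between them in the RefSeq annotation, and so are LIFR and OSMR. The neighbouring ligands differed in their cells (r = 0.357), with OSM highest in granulocyte-like and LIF in MC-like and mast-like cells, while both neighbouring receptors had their highest mean CPM in stromal-like cells.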

How the data were processed

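Lung cells of 6 monkeys, 3 per group with 1 library each, were profiled with a droplet-based 3′ single-cell kit. Per the submitters' processing notes the authors used Cell Ranger (version 2.1.1; the other sources used here give other versions) with the macFas6 genome, and the deposited values are whole UMI counts for each gene in each barcode, not pooled. Barcodes were kept with over 500 but under 5000 genes, 500 or more UMIs and a mitochondrial share of up to 25%, after the study's methods. Cells were scaled to 10000 UMIs, reduced to 2000 variable genes and 10 principal components, and clustered (scanpy 1.11.5, Leiden resolution 0.8). Names came from listed markers, and sub-clusters carrying 4 or more markers of another class were left out. Scrublet marked only 10 cells and was taken not to have worked.

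The deposited counts were summed per library and class or subtype and tested with edgeR 4.0.16 (quasi-likelihood, TMM scaling, low-count filter, 10 cells per library, 2 libraries per group, Benjamini-Hochberg adjustment over all genes of a fit). A gene was called with an adjusted p under 0.05 and a log2 fold change beyond 0.25. Shares of UMIs were compared with exact permutation tests. Replicates were separate monkeys with 1 library each. On simulated data for the stromal-like class (9413 genes), 93.5% of 93 genes changed by a log2 fold of 2 were called, but 13.7% of 95 changed by 1. UMIs do not remove free RNA, and intervals for a count of 0 cover counting error only.

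The members, the gene lists and the tests were chosen with earlier results of these data known. All members were named, and in the lists every gene called in a class or all-cell fit, the most abundant gene in each of 3 classes, and the 3 genes most alike each member. Alternatives were other cell filters, a doublet cut, finer clusters, DESeq2 1.42.0, RLE scaling, no low-count filter and leaving out each library; 4 more were added after the data had been seen.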

Additional observations from a re-analysis of the deposited data

Results flagged for a closer look

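LIFR was higher in every asthma library than in the controls among the barcodes left out by the cell filter, which entered no comparison except that the alternative with a minimum of 200 genes took some of them in. Its level was 8.17 ± 3.70 CPM in asthma and 2.38 ± 1.17 CPM in control (SD, n = 3 each). In the same barcodes IL6 was 27.4 ± 23.7 and 6.40 ± 4.80 CPM and LIF 24.0 ± 21.3 and 7.09 ± 4.85 CPM, with overlapping groups. LIF was 6.001 ± 0.528 CPM in asthma and 4.33 ± 0.778 CPM in control in the cells of no named class, again without overlap. LIFR and LIF, respectively, were the members of the 7 without overlap in these sets. These differences were not tested, the share of all genes without overlap was not computed for these sets, and their cell makeup is not known.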

How the results depend on the processing

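No paired analysis was possible because the groups share no replicate numbers. Of 284 single-gene values recomputed for 21 results, 253 kept their direction and their side of the threshold, 18 were no longer called, 3 became called and 10 changed sign; the cause was not tested. The count of members called higher per class was 1, and it became 0 with a mitochondrial maximum of 10% (LIFR in stromal-like cells, adjusted p = 0.0672) or with mixed sub-clusters kept (0.0517), 2 without the low-count filter, and 0 to 1 when a library was left out. Without that filter the counts of members called lower per class and higher per subtype rose from 0 to 1 each, and with DESeq2 the count called higher in all cells rose from 0 to 1. LIFR in capillary EC-like cells changed sign with a minimum of 200 genes (0.15), with Leiden resolution 1.6 (0.72), without the low-count filter (0.26) and without a library (range −0.34 to 0.83). IL6ST in stromal-like cells turned to 0.0408 without capillary EC-like cells. Leaving out a library moved IL6R in granulocyte-like cells between −0.14 and 0.29 (−0.0045 without control 1, −0.14 without control 3, −0.136 without asthma 11), OSM in macrophage-like cells between −1.17 and 0.20, the macrophage-like share of IL6R between −0.593 and 8.9995 percentage points, the stromal-like share of IL6ST between −1.42 and 11.6, and the granulocyte-like share of OSM between −0.832 and 15.8 (−0.223 without control 1). TIMP1 in stromal-like cells was not called in 8 alternatives, among them the removal of the highest doublet scores (adjusted p = 0.0612), mixed sub-clusters kept (0.0663) and 5 of the 6 left-out libraries, and NFKBIZ in fibroblast-like cells was not called without control 1 (0.0546) or control 3 (0.118). Few UMIs limit the precision of LIFR, OSMR, IL6 and LIF outside their main classes.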
